A study of Homo sapiens with 8 samples.

Results

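The interleukin-1 family was followed on the arrays of a prostate cancer model of epithelial to mesenchymal transition (EMT), as 6 ligand genes (IL1A, IL1B, IL18, IL33, IL37 and the receptor antagonist IL1RN) and 4 receptor genes (IL1R1, IL1RL1, IL1RAP and IL1R2). These 10 genes were found by their symbols in the annotation of the Affymetrix Human Genome U133 Plus 2.0 array, which gave 23 probe sets among 54675, or 10 of the 19775 genes that have a probe set of their own. No member shared a probe set with another gene in that annotation. Values are log2 expression after RMA (robust multi-array average), so a difference of 1 is a 2-fold difference. Total RNA was hybridised to 8 arrays, 1 for each cell population.

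All 8 populations descend from PC3, a human prostate cancer cell line, by way of PC3-Epi, a luciferase-expressing population selected for its epithelial morphology. The 3 EMT lines, PC3-EMT1, PC3-EMT12, and PC3-EMT14 (EMT lines 1, 12 and 14), are mesenchymal populations that were recovered after PC3-Epi cells had been grown together with IL-4-treated CD14+ monocytes as macrophages. PC3-EMT1 and PC3-EMT14 were also transduced by lentivirus with sh4, a short hairpin RNA against ZEB1, or with a scrambled hairpin (Scr), ZEB1 being a transcriptional repressor that maintains the mesenchymal state. The comparisons were the 3 EMT lines against PC3-Epi (1 array) and, within a line, sh4 against Scr (2 arrays each). Luciferase is common to every group, the Scr cells carry a lentiviral vector as the sh4 cells do, and the EMT lines are separate populations of 1 parental culture. Each population has 1 array, so the spread measured is that between lines and p-values speak only for it. The PC3-Epi array was taken to vary as the EMT lines do.

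The products of IL1A, IL1B, IL18 and IL33 are pro-inflammatory ligands that signal through paired receptor chains to MyD88 and NF-kB. Interleukin-1 beta and IL-18 are made as inactive precursors and cleaved by caspase-1 in the inflammasome, while the receptor antagonist and the decoy receptor IL1R2 limit the signal. In carcinoma, interleukin-1 from tumour cells or from macrophages is known for its part in inflammation of the surrounding tissue and in bone metastasis.

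The untransduced and transduced arrays differed in overall level, with medians of 4.33 to 4.35 on the untransduced and 6.19 to 6.23 on the transduced arrays, so no value was compared across these sets. The brightest of 27 bacterial control probe sets, whose targets human cells lack, lay between 4.50 and 4.56 on the EMT arrays and at 4.43 on the PC3-Epi array, and between 5.85 and 5.93 on the sh4 arrays and 5.89 and 6.00 on the Scr arrays. It served as a guide to background. ZEB1 itself (212764_at) stood at 6.81, 7.11 and 6.50 in EMT lines 1, 12 and 14, against 3.08 in PC3-Epi. It was lower in sh4 than in Scr cells by 0.74 in PC3-EMT1 and 1.07 in PC3-EMT14, the direction the labels give. The epithelial cadherin CDH1 read 3.07, 3.61 and 4.00 in EMT lines 1, 12 and 14, all under background, against 11.31 in PC3-Epi. It read 9.63 and 9.75 in the sh4 cells of PC3-EMT1 and PC3-EMT14, against 5.61 and 5.89 in Scr cells, which were under background.

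IL1B was the family member with the largest fitted mean difference between the mesenchymal and the epithelial cells. In PC3-EMT1 alone IL37 221470_s_at differed more, by 4.20 against 3.94 for IL1B 205067_at, while IL1B differed more in PC3-EMT12 and PC3-EMT14. Probe set 205067_at of IL1B read 12.58, 12.37 and 12.83 in EMT lines 1, 12 and 14, against 8.65 in PC3-Epi. All 3 EMT lines were thus well above PC3-Epi, and PC3-Epi was itself above the bacterial controls. The difference was 3.95 ± 0.21 (SE), or 15.4-fold, with a 95% interval of 3.44 to 4.46 and an adjusted p of 0.000305 (limma). A second probe set, 39402_at, read 12.06, 11.80 and 12.32 in the EMT lines and 8.15 in PC3-Epi, a difference of 3.91 ± 0.22 (adjusted p = 0.000418, limma). Among the 13163 probe sets with a positive difference, these 2 stood at ranks 18 and 21. In bulk RNA, more transcript per cell and more cells with the transcript cannot be told apart.

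Macrophages make interleukin-1 beta and were the other cell type of the co-culture, so their markers are given beside the IL1B values. The study passaged the EMT cells 3 times with trypsin to remove macrophages. Of 25 macrophage markers listed, 23 had a probe set, and their summed linear signal was 584, 570 and 588 in EMT lines 1, 12 and 14, against 638 in PC3-Epi. ITGB2, the brightest marker, weighs most in this sum. It read 8.08, 8.00 and 8.04 in EMT lines 1, 12 and 14, against 8.44 in PC3-Epi. LAPTM5 (5.57, 5.23 and 5.38, against 5.11) and CD74 (4.82, 4.88 and 4.75, against 4.60) went the other way. These 3 were the only markers to exceed the brightest bacterial control on any untransduced array, and did so on every one. CD14, CD163, CSF1R and PTPRC were under it on all 4, CD14 reading 3.90, 3.79 and 3.69 in the EMT lines and 3.70 in PC3-Epi. The 2 markers bright enough to test between the EMT lines and PC3-Epi did not pass. On each transduced array 8 or 9 of the 23 markers exceeded the brightest bacterial control. CSF1R was among them on all 4, at 6.79 and 6.71 in the sh4 cells of PC3-EMT1 and PC3-EMT14 and 6.71 and 6.76 in Scr cells. CD14, CD163 and PTPRC were under it on these arrays too.

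IL37, which encodes a ligand known to dampen innate inflammatory responses, was the other strongly raised member. Probe set 224555_x_at read 8.69, 7.74 and 8.44 in EMT lines 1, 12 and 14, against 4.75 in PC3-Epi, and 221470_s_at read 7.13, 5.74 and 6.66 in the same lines, against 2.92 in PC3-Epi. PC3-EMT12 was the lowest of the mesenchymal lines with both probe sets, yet far above PC3-Epi. The differences were 3.55 ± 0.35 (adjusted p = 0.00246) and 3.59 ± 0.49 (adjusted p = 0.00626, limma for both). With 32 added to the linear values they were 2.56 and 1.66. For 221470_s_at PC3-Epi was under the bacterial controls, so its fold can only be bounded. Taking PC3-Epi at its brightest bacterial control, the mean of the EMT lines was at least 4.22-fold higher. The x in the name of the brighter probe set marks probes that may also match other transcripts.

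IL33, an alarmin released from damaged cells and the ligand of IL1RL1, was dim throughout. It read 4.77, 5.08 and 5.12 in EMT lines 1, 12 and 14, each a little above background, and 3.39 in PC3-Epi, which was under background. The fitted difference was 1.60 ± 0.19 (adjusted p = 0.00430, limma). Against the background of the PC3-Epi array the mean of the EMT lines was at least 1.47-fold higher. IL1A could not be followed. Its 2 probe sets lay under the bacterial controls in all untransduced cells, at 3.00 to 3.66 in the EMT lines and 3.23 to 3.34 in PC3-Epi.

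IL18 moved the other way. It read 7.58, 7.76 and 7.50 in EMT lines 1, 12 and 14 and 8.29 in PC3-Epi, with no overlap. The difference of -0.68 ± 0.17 had an adjusted p of 0.0329 (limma), which became 0.0523 without PC3-EMT1 and 0.116 without PC3-EMT14.

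IL1RN, the antagonist that occupies the type 1 receptor without signalling, gave an answer that depended on the probe set. With 212657_s_at it read 3.41, 3.50 and 3.36 in EMT lines 1, 12 and 14, all under background, against 5.93 in PC3-Epi. The fitted difference was -2.50 ± 0.15 (adjusted p = 0.000488, limma). With the EMT lines taken at the mean of their backgrounds the transcript was at least 2.62-fold lower. With 212659_s_at the EMT lines read 4.67, 5.02 and 4.67 and PC3-Epi 4.90, which overlap (-0.11, adjusted p = 0.695, limma). The other 3 probe sets were too dim to be tested, with values between 2.26 and 4.60 in the EMT lines and between 1.99 and 4.51 in PC3-Epi.

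**Figure D1:**
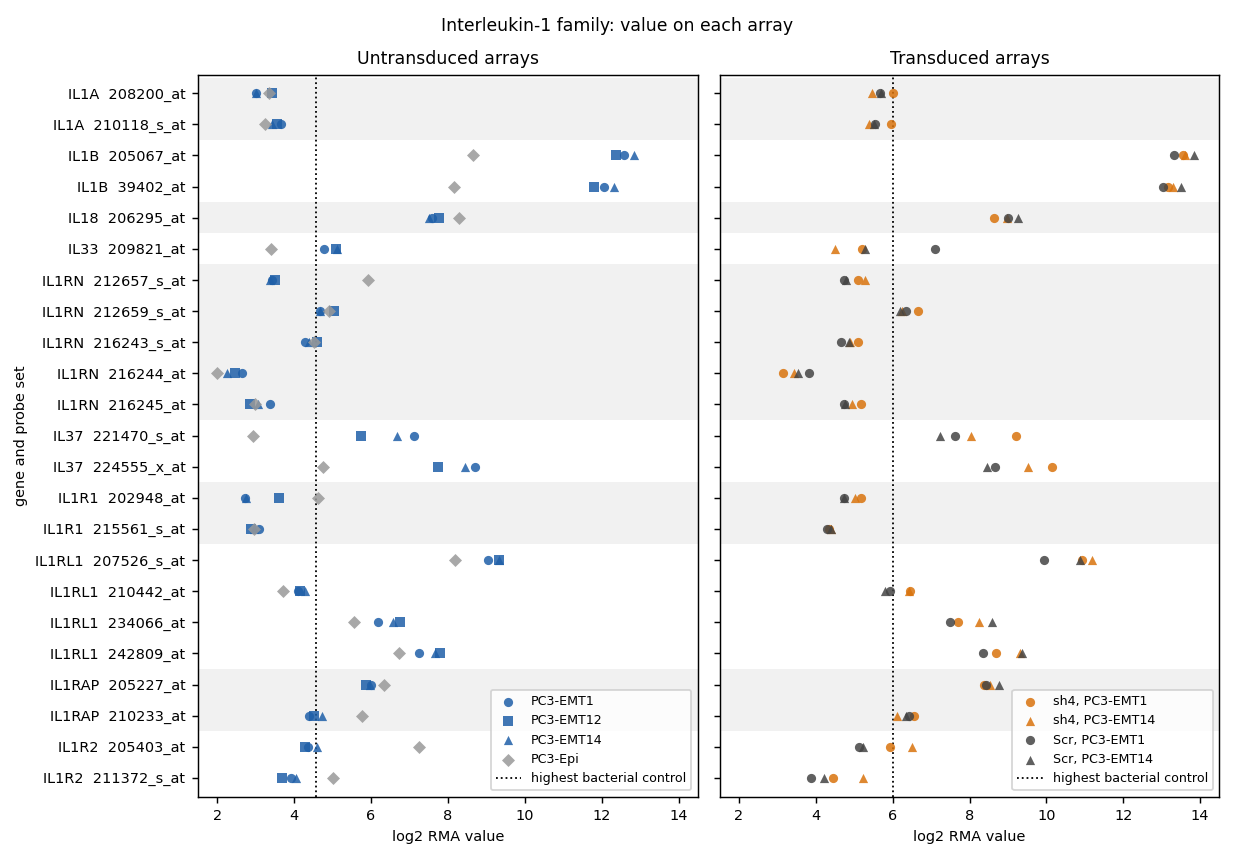
Each point is the log2 RMA value of 1 probe set (rows, grouped by gene) on 1 array, for untransduced cells on the left and transduced cells on the right. The dotted line is the brightest bacterial control of that set of arrays. IL1B and IL37 lie to the right in the EMT lines (blue) and IL1R2 and 1 IL1RN probe set to the left, compared with PC3-Epi (grey).

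The receptors did not move together. IL1R2, the decoy that binds interleukin-1 and does not signal, fell most. Probe set 205403_at read 4.37, 4.27 and 4.59 in EMT lines 1, 12 and 14, against 7.25 in PC3-Epi, so the EMT lines sat around background while PC3-Epi was clearly above it. Of the EMT arrays only that of PC3-EMT14 exceeded its brightest bacterial control, so the fitted difference of -2.84 ± 0.18 (adjusted p = 0.000568, limma) is not an exact fold. It was -1.79 with 32 added to the linear values. Probe set 211372_s_at gave 3.91, 3.69 and 4.04 in the EMT lines and 5.00 in PC3-Epi (-1.13 ± 0.18, adjusted p = 0.0108, limma). With the EMT lines taken at the mean of their backgrounds it was at least 1.38-fold lower.

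IL1R1, the signalling receptor for interleukin-1 alpha and beta, was close to the limit of measurement. Probe set 202948_at read 2.72, 3.60 and 2.76 in EMT lines 1, 12 and 14, all under background, and 4.61 in PC3-Epi, which was just over it. The values do not overlap, but none reached log2 5 and the probe set was not tested. Its other probe set was under background on all 8 arrays.

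IL1RAP, the co-receptor chain shared by interleukin-1 and IL-33, was lower with 210233_at, at 4.40, 4.51 and 4.73 in EMT lines 1, 12 and 14, against 5.76 in PC3-Epi (-1.22 ± 0.18, adjusted p = 0.00813, limma). Of those EMT arrays only that of PC3-EMT14 was above background. Its brighter probe set 205227_at read 5.99, 5.86 and 5.97 in the EMT lines and 6.34 in PC3-Epi, which did not pass the test (-0.40 ± 0.15, adjusted p = 0.0937, limma). When the probe sets of each gene were averaged, IL1RAP passed with a difference of -0.81 (adjusted p = 0.00977, limma).

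IL1RL1, the IL-33 receptor also called ST2, was the one receptor among the 4 members that was raised. Probe set 207526_s_at read 9.03, 9.32 and 9.33 in EMT lines 1, 12 and 14, against 8.18 in PC3-Epi (1.05 ± 0.18, adjusted p = 0.0126, limma). The 3 EMT lines were all above PC3-Epi, PC3-EMT1 the least. Probe sets 234066_at and 242809_at gave smaller differences of 0.95 ± 0.24 (adjusted p = 0.0357) and 0.84 ± 0.24 (adjusted p = 0.0460, limma for both). Without PC3-EMT14 those adjusted p-values were 0.0718 and 0.100. The fourth probe set, 210442_at, was under background on the untransduced arrays.

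**Figure D2:**
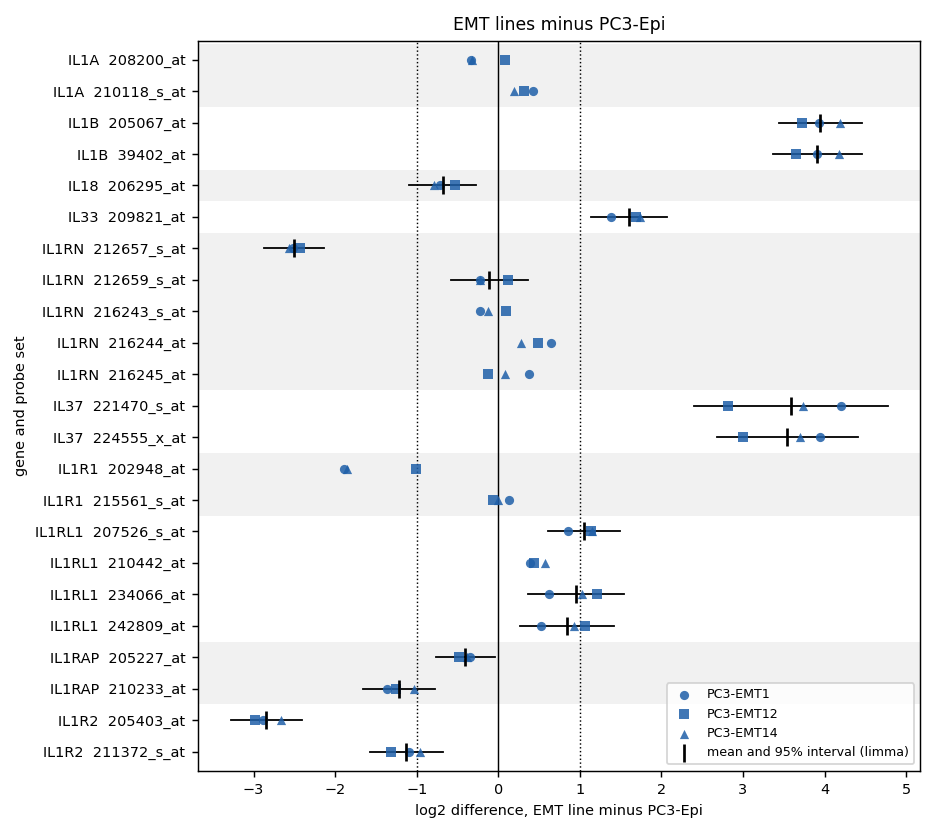
Log2 difference between each EMT line (circle PC3-EMT1, square PC3-EMT12, triangle PC3-EMT14) and PC3-Epi for each member probe set, with dotted lines at 2-fold. Black ticks and bars are the limma mean and 95% interval, drawn only for the 15 probe sets that were tested. The bars of IL1B, IL37 and IL33 lie wholly beyond 2-fold on the right and those of IL1R2 (205403_at) and IL1RN (212657_s_at) wholly beyond it on the left.

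Across the family, 15 of the 23 probe sets (8 of 10 genes) reached log2 5 on at least 1 untransduced array and were tested. Of these, 13 passed at an adjusted p of 0.05, against 26.4% of the 24822 probe sets tested, with 8 higher in the EMT lines (11.0% of all tested) and 5 lower (15.5% of all tested). The higher ones belong to IL1B, IL37, IL33 and IL1RL1 and the lower ones to IL18, IL1RN, IL1R2 and IL1RAP. By the rule of a 2-fold change in every line, 5 were higher (2.24% of all tested) and 3 lower (4.95%), 7.19% of all tested moving in either direction. These counts describe the probe sets and are no evidence on the family, whose members were chosen with earlier results of these data known. Of the 15, 8 reached the limit in only the EMT lines or only PC3-Epi, which favours probe sets that differ, and 7 of them passed. The other 7 reached it in both, and 6 of them passed. PC3-Epi fell outside the range of the EMT lines in 81.3% of all probe sets tested. The 8 probe sets left out, which include both of IL1A and both of IL1R1, differed by -1.59 to 0.47.

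Of the 10 genes, 7 lie on chromosome 2, the ligands IL1A, IL1B, IL37 and IL1RN in one cluster and the receptors IL1R2, IL1R1 and IL1RL1 in another. The neighbouring ligand genes IL36G, IL36A, IL36B, IL36RN and IL1F10, which lie between IL37 and IL1RN, were too dim to be tested in the untransduced cells and differed by -0.29 to 0.19. In the receptor cluster IL1R2 and IL1RL1 moved in opposite directions, and IL18R1, a chain of the IL-18 receptor, gave -0.60 (adjusted p = 0.108, limma).

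**Figure D3:**
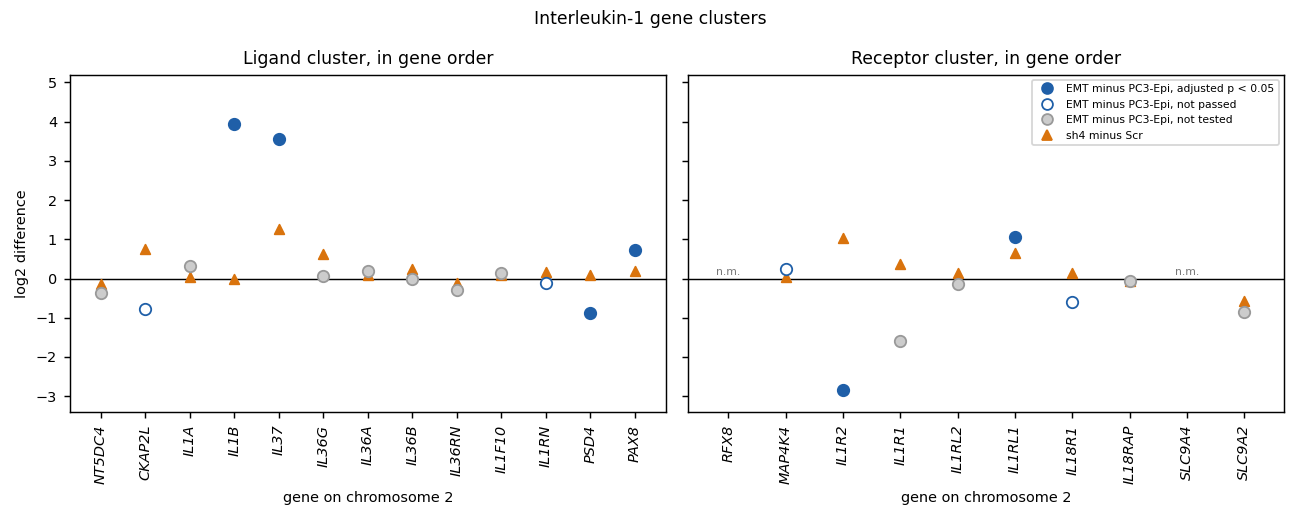
Mean log2 difference of each gene in its order along the ligand (left) and receptor (right) clusters of chromosome 2, with 1 probe set per gene, the brightest in that comparison, and n.m. for genes with none of their own. Circles are EMT lines minus PC3-Epi and triangles sh4 minus Scr. IL1RN is drawn with 212659_s_at and not with the probe set that fell. Among the ligand genes drawn, IL1B and IL37 are the only filled circles above 1.

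ZEB1 is known to bind the E-box CACCTG, so the windows around the start sites of the members were searched for it on both strands. RefSeq (GRCh38.p14) gave 19 windows for 9 of the 10 members, each from 250 bases before to 50 bases after a start site. The motif was present in 3 of them, against 20.6% of 35116 windows of the same length. They are both windows of IL1R2 and 1 of the 2 of IL37, printed below with the motif, or its reverse complement CAGGTG, in capitals, together with the single window of IL1B, which lacks it. In the windows of IL1R2 the motif lay on the reverse strand and began at position 35 of the first and -136 of the second relative to the start site, and in that of IL37 it began at -238. A match describes the letters only. The other motifs, which do not overlap this one, were searched on both strands. TGANTCA, the AP-1 site, was found in 4 member windows, those of IL1A (both), IL1RN and IL1RL1 (7.71% of all windows). The 2 windows of IL1A overlap and hold the same sites, so they are not separate matches. The NF-kB motif was found in 1, that of IL1R2 at chr2:101991710-101992009 (11.3% of all windows).
IL1R2, chr2:101991710-101992009, plus strand: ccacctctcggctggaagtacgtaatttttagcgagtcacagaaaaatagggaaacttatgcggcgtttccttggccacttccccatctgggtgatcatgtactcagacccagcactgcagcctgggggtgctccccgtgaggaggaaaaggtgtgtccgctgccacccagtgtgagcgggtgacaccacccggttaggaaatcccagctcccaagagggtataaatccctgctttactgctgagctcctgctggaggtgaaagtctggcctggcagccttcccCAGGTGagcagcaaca
IL1R2, chr2:101998711-101999010, plus strand: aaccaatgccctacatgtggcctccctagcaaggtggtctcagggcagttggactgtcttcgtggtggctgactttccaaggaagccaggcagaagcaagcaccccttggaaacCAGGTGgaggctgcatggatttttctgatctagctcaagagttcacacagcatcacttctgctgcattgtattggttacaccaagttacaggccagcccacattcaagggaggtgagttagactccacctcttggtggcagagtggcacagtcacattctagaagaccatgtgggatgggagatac
IL37, chr2:112910915-112911214, plus strand: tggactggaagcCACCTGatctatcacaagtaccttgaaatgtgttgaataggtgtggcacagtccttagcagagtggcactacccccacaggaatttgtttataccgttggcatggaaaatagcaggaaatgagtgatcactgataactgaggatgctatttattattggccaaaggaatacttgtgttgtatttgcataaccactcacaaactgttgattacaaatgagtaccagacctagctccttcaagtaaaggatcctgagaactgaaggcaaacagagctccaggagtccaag
IL1B, chr2:112836730-112837029, minus strand: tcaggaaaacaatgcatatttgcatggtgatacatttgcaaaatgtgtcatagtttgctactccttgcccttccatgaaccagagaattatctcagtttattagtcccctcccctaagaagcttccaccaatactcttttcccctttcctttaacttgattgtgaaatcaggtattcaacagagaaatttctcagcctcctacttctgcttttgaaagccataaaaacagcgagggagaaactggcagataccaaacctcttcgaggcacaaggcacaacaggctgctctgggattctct

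IL1B showed no detectable difference between ZEB1-silenced and control cells. With 205067_at the sh4 cells read 13.54 in PC3-EMT1 and 13.60 in PC3-EMT14, against 13.32 and 13.83 in the Scr cells of the same lines. The values overlap, and the lines moved in opposite directions by 0.23 and -0.23. The mean difference was -0.0017, with a 95% interval of -0.44 to 0.43 (adjusted p = 0.998, limma). Probe set 39402_at gave -0.04 with an interval of -0.43 to 0.35.

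IL37 gave higher values in the ZEB1-silenced cells of both lines, without passing the test over all probe sets. Probe set 224555_x_at read 10.16 and 9.51 in the sh4 cells of PC3-EMT1 and PC3-EMT14, against 8.67 and 8.46 in Scr cells, so that both sh4 arrays lay above both Scr arrays. The difference was 1.27 ± 0.15 with a 95% interval of 0.85 to 1.69, and it exceeded 2-fold in both lines (1.48 and 1.06), which 0.286% of the 40865 probe sets tested did in either direction. It was the 1 member probe set to do so. Adjusted over all probe sets its p was 0.329 (limma). Probe set 221470_s_at read 9.20 and 8.03 in sh4 cells, against 7.61 and 7.22 in Scr cells, a difference of 1.20 ± 0.22 (adjusted p = 0.333, limma).

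IL1R2 likewise read higher in the sh4 cells of both lines. Probe set 205403_at read 5.92 and 6.50 in the sh4 cells of PC3-EMT1 and PC3-EMT14, against 5.12 and 5.23 in Scr cells. Of these only the sh4 array of PC3-EMT14 exceeded the bacterial controls. The difference was 1.03 ± 0.16 (adjusted p = 0.333, limma). Probe set 211372_s_at was under background on all 4 arrays and differed by 0.79 ± 0.16.

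IL33 was the member with the largest negative difference. It read 5.19 in the sh4 cells of PC3-EMT1 and 4.49 in those of PC3-EMT14, against 7.11 and 5.28 in Scr cells. Only the Scr array of PC3-EMT1 was above background, and the difference of -1.35 ± 0.30 (adjusted p = 0.333, limma) was -1.92 in that line and -0.79 in PC3-EMT14. IL18 read 8.65 and 8.98 in the sh4 cells of PC3-EMT1 and PC3-EMT14, against 9.00 and 9.25 in Scr cells (-0.31 ± 0.11, adjusted p = 0.369, limma), with both sh4 arrays under both Scr arrays.

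For IL1RL1, values differed between the lines as well as between the hairpins. Probe set 207526_s_at read 10.92 and 11.18 in the sh4 cells of PC3-EMT1 and PC3-EMT14, against 9.94 and 10.87 in Scr cells (0.65 ± 0.20, adjusted p = 0.347, limma). Between the Scr arrays, PC3-EMT14 exceeded PC3-EMT1 by 0.93, 1.09 and 1.01 with the 3 brighter IL1RL1 probe sets, and between the untransduced arrays by 0.30, 0.40 and 0.41. With 1 array each this gap between lines was not tested. The other IL1RL1 probe sets gave sh4 minus Scr differences of 0.58 (210442_at), 0.14 (242809_at) and -0.08 (234066_at). IL1RAP gave -0.15 and -0.06, and IL1R1 (202948_at) 0.38 with all values under background. IL1RN ranged from 0.18 to 0.42 over the 4 probe sets tested, of which 212659_s_at alone was above background. IL1A gave 0.05 and 0.14, with the lines in opposite directions. Too dim to be tested here were 1 IL1RN and 1 IL1R1 probe set.

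**Figure D4:**
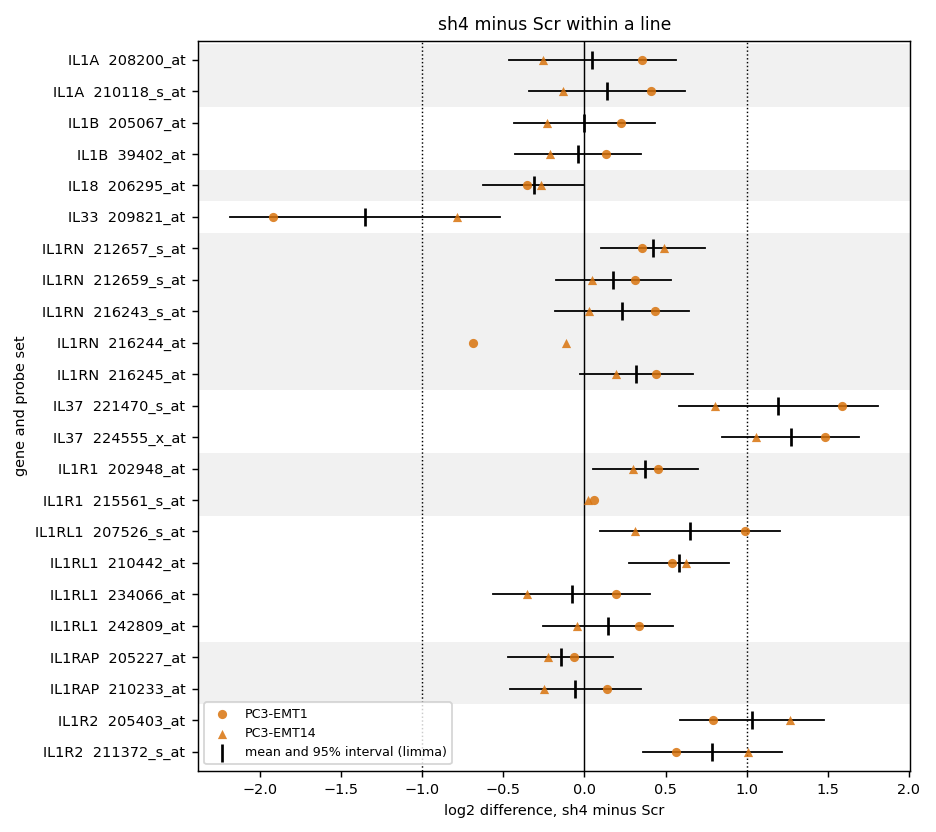
Log2 difference between sh4 and Scr cells within PC3-EMT1 (circle) and within PC3-EMT14 (triangle) for each member probe set, with dotted lines at 2-fold. Black ticks and bars are the limma mean and 95% interval for the 21 probe sets tested. Both points of IL37 224555_x_at lie beyond 2-fold, both points of IL33 are below 0, and the IL1B points straddle 0.

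In all, 21 of the 23 probe sets (10 of 10 genes) were tested between sh4 and Scr. None passed at an adjusted p of 0.05, as was so for all 40865 probe sets tested (0% called by limma, with a lowest adjusted p of 0.131). With 1 residual degree of freedom this fit is weak. At an unadjusted p of 0.05, 10 member probe sets passed, 8 higher and 2 lower, against 13.5% of all tested. The sh4 arrays lay outside the Scr arrays for 12 of 21 member probe sets, 10 above and 2 below. Over all probe sets tested this held for 42.2%, 22.8% above and 19.4% below. Counted both among the 8 and among the 10 are IL1R1 202948_at, IL1R2 211372_s_at and IL1RN 212657_s_at, which were under background on all 4 arrays. So were IL1RN 216243_s_at and 216245_at, counted only among the 10. A fit that added the untransduced arrays of PC3-EMT1 and PC3-EMT14, with the line as a block, called 0.485% of all probe sets, among them IL37 224555_x_at (adjusted p = 0.0208) and IL1R2 205403_at (adjusted p = 0.0438, limma for both). IL37 221470_s_at had an adjusted p of 0.0599 in that fit. Its residual spread also holds the mismatch in scale between the array sets.

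The rest of the pathway was read from lists of genes, whose counts stand beside the 26.4% of all probe sets called in this comparison (11.0% higher and 15.5% lower). Of 16 genes for processing of the precursors, 7 were bright enough to test between the EMT lines and PC3-Epi, and 1 passed, PYCARD, the inflammasome adaptor, with 1.29 (adjusted p = 0.0161, limma). CASP1, the protease that cleaves interleukin-1 beta, was under background on the untransduced arrays. It read 3.83, 3.47 and 3.86 in EMT lines 1, 12 and 14 and 3.52 in PC3-Epi. On the transduced arrays it was above background, at 6.50 and 6.67 in the sh4 cells of PC3-EMT1 and PC3-EMT14 and 6.47 and 6.26 in Scr cells. Of 6 further receptor genes 2 were tested and SIGIRR, an inhibitory receptor, passed with 1.01 (adjusted p = 0.00789, limma). Of 30 genes for signalling below the receptor 23 were tested, and 3 passed higher (IKBKB, IKBKG and RELA) and 4 lower (MYD88, TAB2, TAB3 and CHUK), with differences between -0.83 and 0.82. The median of those tested was -0.05, beside 0.04 over all probe sets. The genes of these lists were named after their values were seen, and none differed 2-fold in every line.

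Genes known to respond to interleukin-1 were called in both directions in the EMT lines. Of 30 listed, 25 had a probe set and 18 were tested, of which 2 passed higher and 3 lower, beside 11.0% higher and 15.5% lower of all probe sets tested. Their median was 0.15, beside 0.04 over all probe sets. The lower ones were LCN2, an iron-binding antibacterial protein, the complement component C3 and the neutrophil chemokine CXCL5. LCN2 read 5.08, 5.11 and 5.03 in EMT lines 1, 12 and 14, against 10.90 in PC3-Epi (adjusted p = 8.12e-05, limma). C3 differed by -3.48, at 5.33, 4.55 and 5.14 in the EMT lines against 8.49 in PC3-Epi. CXCL5 differed by -2.80, at 4.67, 4.63 and 4.62 against 7.44. The EMT values of CXCL5 were little above background and that of C3 in PC3-EMT12 was under it, so neither difference is an exact fold. The chemokine CXCL3 (1.54, adjusted p = 0.0452) and the adhesion molecule ICAM1 (0.63, adjusted p = 0.0451, limma for both), named after their values were seen, were higher.

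Between sh4 and Scr cells most genes of this list read higher with sh4. Of the 19 genes tested, 13 were higher and 1 lower at an unadjusted p of 0.05, beside 13.5% of all probe sets tested in either direction. None passed after adjustment, and the median was 0.71 beside 0.01 over all probe sets. The lower gene was MMP1, named after its values were seen, with -0.59 in PC3-EMT1 and -0.52 in PC3-EMT14. MMP1 was also 2-fold or more lower in every EMT line than in PC3-Epi (-1.95, adjusted p = 0.0517, limma). The chemokines CXCL5, CXCL3 and CXCL1 and C3 exceeded 2-fold in both lines, chosen after their values were seen. CXCL5 read 7.46 and 8.22 in the sh4 cells of PC3-EMT1 and PC3-EMT14, against 5.11 and 5.56 in Scr cells, which were under background. CXCL1 read 12.88 and 13.06 in the sh4 cells, against 11.59 and 11.13 in Scr cells. In the fit over 6 arrays 6 of the list passed, all higher, beside 0.296% of all probe sets called higher.

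**Figure D5:**
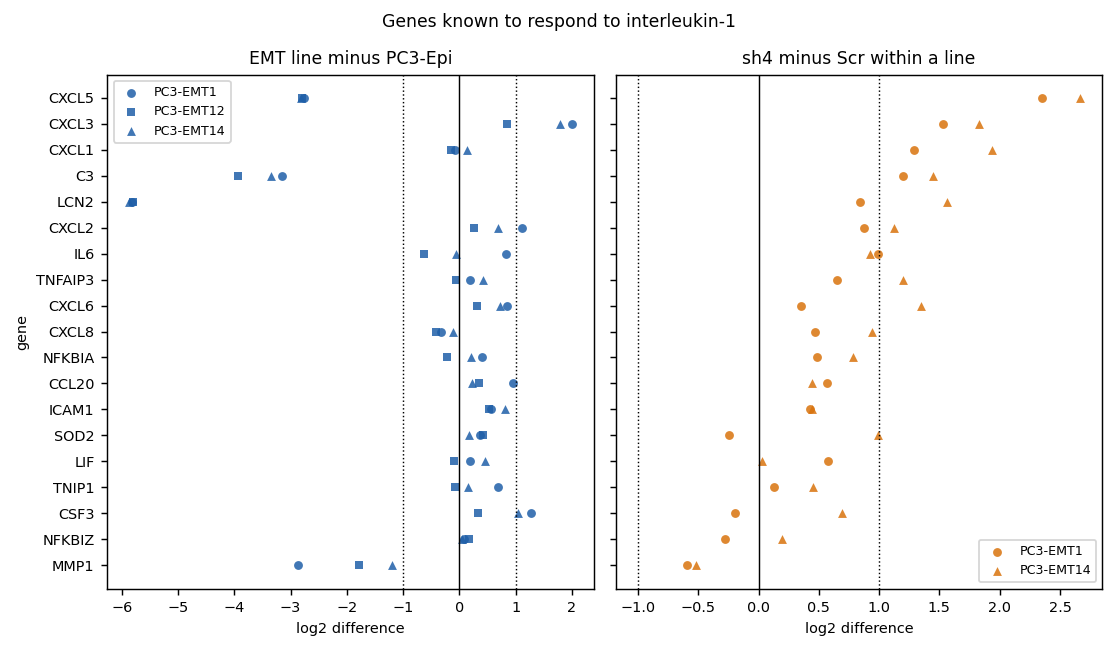
Log2 difference of the 19 interleukin-1 response genes tested between sh4 and Scr, as EMT line minus PC3-Epi (left) and sh4 minus Scr within a line (right), ordered by the mean on the right, with dotted lines at 2-fold. LCN2, C3 and CXCL5 are far left of 0 in the EMT lines and right of 0 in the sh4 cells, while MMP1 is left of 0 in both panels.

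The genes whose pattern was most like that of IL1B were sought over 5 differences, those of the 3 EMT lines from PC3-Epi and of sh4 from Scr in both lines, among 21464 probe sets bright enough in both comparisons. The nearest were PLAAT1 (219983_at), TUBB4A (212664_at) and BCL2A1 (205681_at), at root mean square distances of 0.30, 0.31 and 0.37 on the log2 scale. PLAAT1 was higher than PC3-Epi by 3.85, 3.67 and 3.93 in EMT lines 1, 12 and 14, and differed by -0.19 and 0.22 between sh4 and Scr cells. The EMT differences share the one PC3-Epi array.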

How the data were processed

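Total RNA of 8 cell populations was hybridised to Affymetrix Human Genome U133 Plus 2.0 arrays. The authors deposited log2 values made with RMA (the affy package, per the labels, version not given in the sources used here). Array number limits the precision, and depth does not apply.

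Probe sets were named from the platform annotation: 41091 had 1 gene symbol, 1801 had several and 11721 had none, and 62 controls were left out. Symbols were updated by Entrez number for 41037. Differences were tested per probe set with limma 3.58.1 (lmFit, eBayes) in R 4.3.3, with Benjamini-Hochberg adjustment over all probe sets with at least 1 array of the comparison at log2 5 or above. The EMT lines and PC3-Epi were fitted over the 4 untransduced arrays. The sh4 and Scr arrays were fitted over the 4 transduced arrays with the cell line as a block, since same-numbered arrays come from the same line (the deviations of the lines in Scr and sh4 cells correlated at r = 0.40 across probe sets). The scripts were tested on simulated data.

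Every probe set of a member is reported. Of each list, the genes named were the up to 3 in each direction that passed limma and differed 2-fold in every line, with the brightest probe set standing for a gene, and exceptions are stated. Alternatives were other filters, 1 probe set per gene or their mean, median centring, quantile and cyclic loess normalization, 32 added to the linear values, trended and robust eBayes, each line left out, no block, and a fit over 6 arrays. The members, lists and rules were chosen with earlier results of these data known. Promoter windows are from RefSeq (GRCh38.p14).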

Additional observations from a re-analysis of the deposited data

Results flagged for a closer look

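Several member probe sets moved in opposite directions in the lines when ZEB1 was silenced, so that the change in PC3-EMT14 minus that in PC3-EMT1 was singled out. With 1 array for each hairpin in a line, the difference between lines was not tested. It was -0.61 and -0.54 for the IL1A probe sets 208200_at and 210118_s_at, which lay near background. For IL1B it was -0.45 with 205067_at and -0.35 with 39402_at. For IL1RAP 210233_at it was -0.39, and for IL1RL1 it was -0.55 with 234066_at and -0.38 with 242809_at. In each case PC3-EMT1 had its sh4 cells above its Scr cells and PC3-EMT14 had them below. Opposite directions in the lines were seen for 7 of the 21 member probe sets tested, no larger a share than the 37.5% of all probe sets tested. No group had enough arrays for a search for outlying values.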

How the results depend on the processing

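Between the EMT lines and PC3-Epi, 13 member probe sets passed, and 8 passed with the filter at log2 7, 6 with 1 probe set per gene, 7 with their mean and 10 to 13 with each EMT line left out. Over the whole array 6563 probe sets passed, against 3496 genes with 1 probe set per gene, 3200 genes with the mean and 3314 to 9160 probe sets with a line left out (the lowest without PC3-EMT14). The 2-fold rule gave 1784, against 1083 with the filter at log2 7, 936 with 1 probe set per gene, 650 with the mean and 898 with 32 added. Adding 32 shrank the differences of dimmer members, to 0.59 for IL33, 2.56 for IL37 224555_x_at, 1.66 for IL37 221470_s_at, -1.12 for IL1RN 212657_s_at, -1.79 for IL1R2 205403_at, -0.46 for IL1R2 211372_s_at and -0.64 for IL1RAP 210233_at, all past the threshold. IL1RL1 242809_at no longer passed without a filter (adjusted p = 0.0600, limma). IL1B and IL37 passed under every alternative that tested them.

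Between sh4 and Scr, 0 probe sets passed, against 6 with the filter at log2 7, 15 with the mean, 19 with median centring, 13 with quantile normalization, 1 with no replicate block and 198 over 6 arrays, of which 2 were members. The 2-fold rule gave 117, against 68 with 1 probe set per gene, 40 with the mean and 57 with 32 added. IL1A 208200_at turned to -0.016 under cyclic loess. A line left out leaves the other line's value, with no test. No call of a member changed without the block. Values under the bacterial controls, and the single PC3-Epi array, limit what can be read from the dim members.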
